A study of Mus musculus with 6 samples.

Results

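The genes described here are 37 mouse genes of autophagy and the lysosome, chosen by name from their known roles, in C2C12 cells. C2C12 is a mouse myoblast line that stops dividing in low serum and fuses into multinucleated myotubes. RNA was sequenced from 6 libraries, 2 each of myotubes at day 7 of differentiation in medium with 2% horse serum, reserve cells from the same day and medium, and undifferentiated myoblasts harvested at about 95% confluency (day 0). Reserve cells are the mononucleated cells that remain unfused, and the submitters parted them from the myotubes by mild trypsin treatment. All 3 groups come from 1 cell line, and the labels name no transgene, deletion or drug. The 2 libraries of a group are given as biological replicates with no word on what separates them, so p-values measure the spread between these libraries. Of 25308 genes with a count, 15467 passed a filter on low counts and were tested. They include 36 of the 37 genes, all except Ctsk.

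Autophagy delivers cytoplasm to the lysosome. The ULK kinase complex starts the process, the Vps34 lipid kinase complex marks the growing membrane with a phosphoinositide, and ubiquitin-like conjugation enzymes attach Atg8 family proteins (LC3 and GABARAP) to it. Cargo receptors bind both cargo and Atg8 proteins, and the closed autophagosome fuses with a lysosome, whose hydrolases digest the contents. Transcription factors of the MiT/TFE family (TFEB, TFE3 and MITF) switch on many genes of both compartments. Skeletal muscle depends on this route for clearing organelles, and inherited loss of acid alpha-glucosidase or of LAMP2 causes muscle disease in people.

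Library totals lay between 15658875 and 20055078 estimated counts. Levels between libraries are given in CPM, counts brought to a common library size with edgeR's TMM factors (a trimmed mean of log ratios), and levels between genes in TPM, which also divides by transcript length. A gene was called at an adjusted p under 0.05 in edgeR's quasi-likelihood test, with Benjamini-Hochberg adjustment across the whole table. The labels were checked against marker genes. The summed level of 6 myotube markers (Myog, Myh3, Acta1, Ckm, Tnnt3 and Mymk) was 20638 and 20641 CPM in myotubes, 6120 to 6222 CPM in reserve cells and 228 to 240 CPM in myoblasts. None of these markers was at 0 in a reserve cell library, and how far myotube RNA enters the reserve cell values was not tested. The sum of 4 myoblast and cycling markers was 99.8 to 111 CPM in myotubes, 519 to 535 CPM in reserve cells and 1351 to 1385 CPM in myoblasts. The 4 markers chosen for reserve cells (Pax7, Notch3, Spry1 and Cd34) summed to 173 CPM in both myotube libraries, 539 and 541 CPM in reserve cells and 429 to 438 CPM in myoblasts. The sum set reserve cells apart from myotubes more than from myoblasts, but the markers differed. By means in myotubes, reserve cells and myoblasts, Notch3 was at 57.2, 343 and 320 CPM and Cd34 at 10.3, 49.2 and 32.1 CPM. Pax7 was at 9.98, 63.4 and 70.5 CPM, highest in myoblasts. Spry1 was at 95.6, 84.4 and 10.7 CPM, highest in myotubes. In bulk RNA, fewer cells of a type and less RNA per cell cannot be told apart. Of 7 macrophage markers, Ptprc and Adgre1 were at 0 in every library and the list summed to at most 12.6 CPM. Of 5 fibroblast markers none was at 0 everywhere. Their sum was 529 to 540 CPM in myotubes, 2764 to 2854 CPM in reserve cells and 2186 to 2189 CPM in myoblasts. Most of it was Col3a1, with means of 450, 2427 and 2044 CPM in that order. Col1a1 (61.7, 274 and 112 CPM) and Dcn (15.1, 97.8 and 13.4 CPM) were also highest in reserve cells. Pdgfra was highest in myoblasts (8.18, 10.1 and 18.6 CPM), and Thy1 was at most 0.21 CPM in any library. The part of these genes in the results below was not tested.

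Most of the 36 tested genes differed between the cell states, in both directions. In myotubes over myoblasts 30 of 36 were called, 21 higher and 9 lower, where 65.5% of all tested genes were called (32.7% higher and 32.9% lower). The median log2 fold change of the 36 was 0.47, against 0.00 for all tested genes. In reserve cells over myoblasts 29 were called, 23 higher and 6 lower, where 47.1% of all tested genes were called (24.7% higher and 22.4% lower), and the median was 0.37 beside 0.01. In myotubes over reserve cells 26 were called, 15 higher and 11 lower, where 56.5% of all tested genes were called (27.6% higher and 28.9% lower), and the median was 0.13 beside −0.01. Both comparisons with myoblasts use the same 2 myoblast libraries. The CPM of the groups did not overlap for 34, 32 and 34 of the 36 genes in these comparisons. Of all tested genes 82.9%, 74.8% and 78.3% did not overlap.

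The direction of small changes depends on the scaling. Scaling by library totals moved the median of all genes by −0.28 in myotubes over myoblasts, by −0.21 in myotubes over reserve cells and by −0.07 in reserve cells over myoblasts. The members called were then 17 higher and 12 lower in myotubes over myoblasts, and 11 higher and 15 lower in myotubes over reserve cells. Of all genes called with library totals in these comparisons 36.5% and 34.3% were higher, beside 49.9% and 48.9% with TMM. Without the second reserve cell library, the genes lower in myotubes than in reserve cells numbered 7 in place of 11. With limma-trend on the authors' series table, which carries no depth scaling (1 added before log2), the members called were 12 higher and 9 lower, 8 higher and 0 lower (1 lower at an unadjusted p under 0.05, and 6 lower by edgeR), and 3 higher and 9 lower in the same order of comparisons as above. Of all genes, limma-trend called 8197, 3768 and 6215 in that order, where edgeR called 10137, 7291 and 8739. Of these limma-trend calls 33.9%, 60.1% and 21.8% were higher. Limma-trend ended 9 of the calls in myotubes over myoblasts, those of Ulk2, Rb1cc1, Atg14, Atg3, Map1lc3b, Mitf, Lamp1, Ctsl and Hexa. It ended 21 of the 29 calls in reserve cells over myoblasts, and the 8 that held were those of Ulk1, Atg13, Atg3, Atg16l1, Map1lc3a, Tfeb, Ctsd and Hexa. Between myotubes and reserve cells it ended 14, those of Atg13, Becn1, Atg9a, Wipi1, Wipi2, Atg12, Atg16l1, Map1lc3b, Nbr1, Optn, Lamp1, Ctsd, Ctsl and Gaa. All folds below are relative to TMM scaling.

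**Figure D1:**
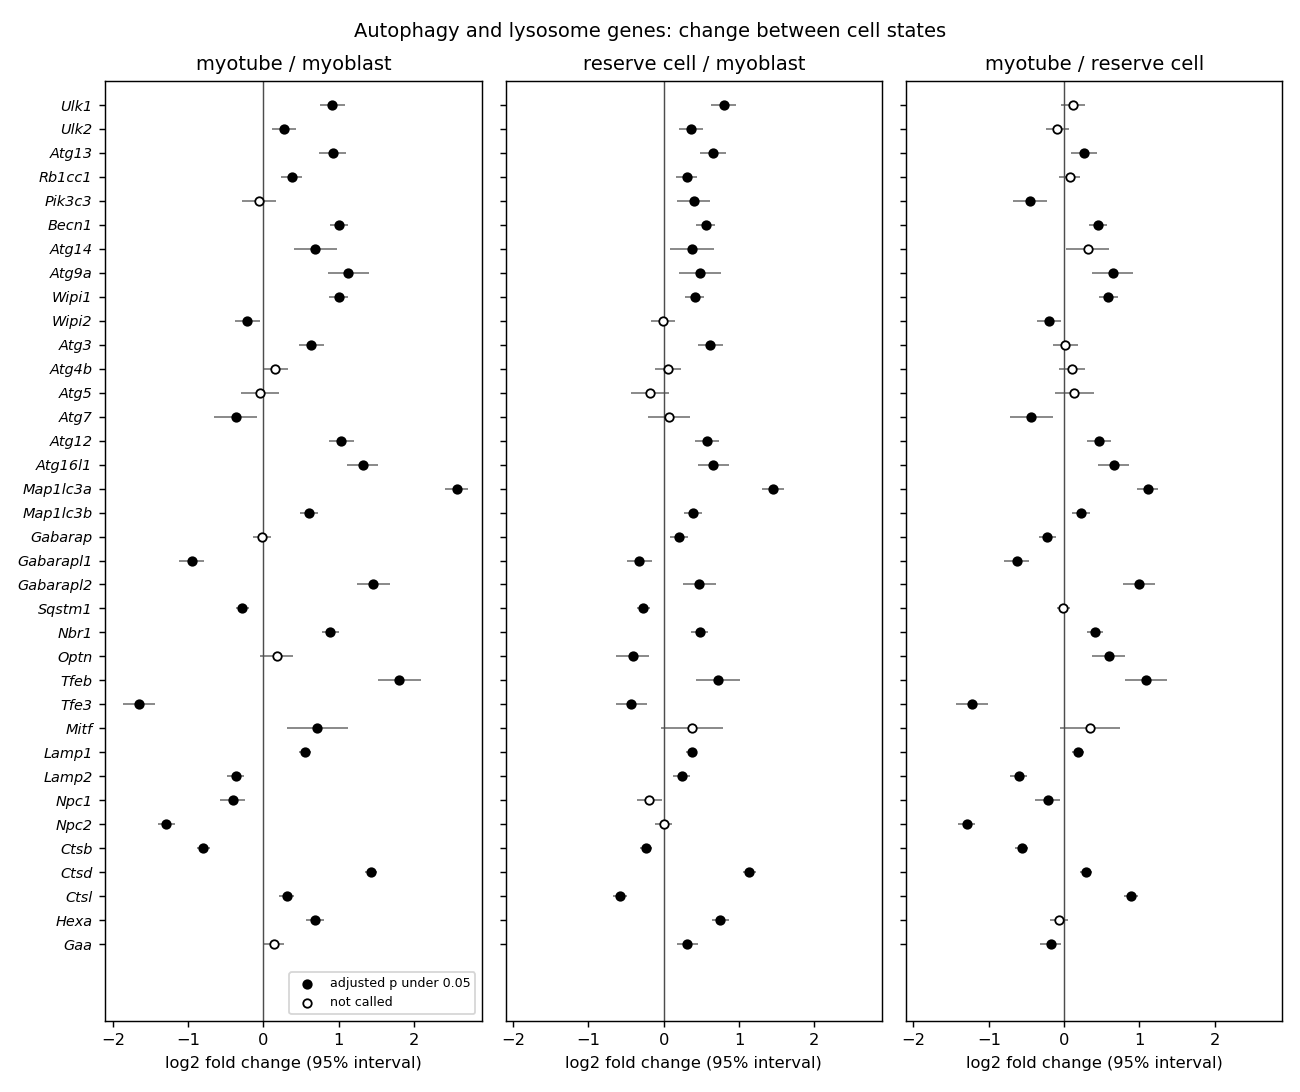
Log2 fold change of the 36 tested genes in 3 comparisons, with 95% intervals on the x axis and genes in rows by role, from the ULK complex at the top to hydrolases at the bottom. Filled points passed the threshold and open points did not. In the panel of myotubes over myoblasts, Map1lc3a lies farthest to the right at 2.57 and Tfe3 farthest to the left at −1.65.

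All 4 genes of the ULK initiation complex were higher in both day 7 populations than in myoblasts. Ulk1, the kinase itself, was at 109 and 123 CPM in myotubes, 107 CPM in both reserve cell libraries, and 61.1 and 61.9 CPM in myoblasts. Its level in myotubes was 1.89-fold that in myoblasts (log2 fold change 0.92, SE 0.08, adjusted p = 1.7e-07). Atg13, the adaptor that links the kinase to its scaffold, was at 71.5 and 70.0 CPM in myotubes, 60.9 and 56.6 in the reserve cells, and 36.8 and 38.0 in myoblasts. Its log2 fold change was 0.92 in myotubes and 0.65 in reserve cells over myoblasts (SE 0.08 each). Ulk2, a second kinase of the family, and Rb1cc1, the scaffold FIP200, changed less, with 0.27 and 0.38 in myotubes and 0.36 and 0.30 in reserve cells over myoblasts. With library totals, neither was called between myotubes and myoblasts (adjusted p = 0.96 for Ulk2 and 0.18 for Rb1cc1), and Ulk2 was also lost without the first myoblast library (adjusted p = 0.057). Between myotubes and reserve cells, Atg13 was the one gene of this complex that was called (0.27, SE 0.08), and it was lost with library totals (adjusted p = 0.53) and without the second reserve cell library (adjusted p = 0.10). Ulk1, which was not called there, became so without the first myotube library (adjusted p = 0.044), and Ulk2 with library totals (−0.30, adjusted p = 0.003).

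Among the 6 nucleation genes, 4 were higher in myotubes than in myoblasts, and Pik3c3 and Wipi2 behaved differently. Becn1, the Beclin 1 subunit of the Vps34 complex, was at 183 and 189 CPM in myotubes, 134 and 139 in the reserve cells, and 92.6 and 93.1 in myoblasts. The 3 groups were clearly apart, and its log2 fold change was 1.00 in myotubes (SE 0.06, adjusted p = 2.5e-09) and 0.56 in reserve cells over myoblasts. Wipi1, which binds the lipid that Vps34 makes, followed the same order, with 183 and 193 CPM in myotubes, 125 CPM in both reserve cell libraries, and 96.9 and 91.2 CPM in myoblasts. Atg9a, a membrane protein that travels in vesicles to the forming autophagosome, was 2.19-fold higher in myotubes than in myoblasts (1.13, SE 0.12). Its reserve cell libraries spread widely, at 60.5 and 79.9 CPM, and its call in reserve cells over myoblasts (0.48) was lost without the second myoblast library (adjusted p = 0.083). Atg14, which directs the Vps34 complex to autophagy, was at 25.1 and 29.2 CPM in myotubes, 22.9 and 20.8 in the reserve cells, and 17.3 and 16.4 in myoblasts. Its call in reserve cells over myoblasts (0.37, adjusted p = 0.034) was lost with library totals (adjusted p = 0.081), with DESeq2 and without any 1 of the 4 libraries compared (adjusted p = 0.055 to 0.20). Between myotubes and reserve cells it was not called (adjusted p = 0.058), but was with factors by relative log expression, with the stricter filter and without the first myotube library.

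Pik3c3, the lipid kinase Vps34, was highest in reserve cells. It was at 24.2 and 25.2 CPM in myotubes, 34.3 and 33.2 in the reserve cells, and 25.8 and 25.5 in myoblasts. It was higher in reserve cells than in myoblasts (0.40, SE 0.10, adjusted p = 0.0066) and lower in myotubes than in reserve cells (−0.45, SE 0.10). The first of these was lost without the first reserve cell library (adjusted p = 0.055), and with library totals Pik3c3 was also lower in myotubes than in myoblasts (−0.34, adjusted p = 0.013). Wipi2, a relative of Wipi1 that recruits the conjugation machinery, was at 79.5 and 85.1 CPM in myotubes, 95.4 and 94.0 in the reserve cells, and 99.3 and 91.4 in myoblasts. Its lower level in myotubes was called against both other groups (−0.21 and −0.20, adjusted p = 0.024 and 0.034). Both calls were lost with DESeq2 and without the first myotube library (adjusted p = 0.10 against myoblasts and 0.14 against reserve cells). The call against myoblasts was also lost without the first myoblast library (adjusted p = 0.15), and the call against reserve cells with factors by relative log expression and without either reserve cell library (adjusted p = 0.11 and 0.071).

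The conjugation enzymes divided into genes that rose and genes that did not. Atg16l1, which positions the conjugation complex on the membrane, was at 70.8 and 76.8 CPM in myotubes, 47.8 and 45.7 in the reserve cells, and 26.9 and 32.1 in myoblasts. This was 2.49-fold higher in myotubes than in myoblasts (1.32, SE 0.10, adjusted p = 4.2e-08). Atg12, the ubiquitin-like protein of the complex, was at 105 and 106 CPM in myotubes, 75.9 and 77.5 in the reserve cells, and 49.7 and 53.5 in myoblasts, and was 2.05-fold higher in myotubes than in myoblasts. Atg3, the E2-like enzyme that joins Atg8 proteins to lipid, was nearly level in the day 7 groups, with 57.5 and 58.6 CPM for myotubes, 56.5 and 58.1 CPM for reserve cells, and 37.4 and 37.2 CPM in myoblasts. It was called against myoblasts in both (0.64 and 0.62) but not between myotubes and reserve cells (0.02, 95% interval −0.15 to 0.18), where library totals made it lower in myotubes (−0.19, adjusted p = 0.047). With limma-trend on the series table, its change in myotubes over myoblasts was 0.33 and not called (adjusted p = 0.24).

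Atg5, the partner that Atg12 is joined to, was called in no comparison, with levels of 31.9 and 35.2 CPM in myotubes, 30.0 and 31.1 in the reserve cells, and 30.4 and 38.8 in myoblasts. The 2 myoblast libraries enclosed both myotube values, and with library totals Atg5 was lower in myotubes than in myoblasts (−0.33, adjusted p = 0.027). Atg4b, the protease that trims Atg8 proteins, was also not called, with intervals of −0.01 to 0.33 in myotubes and −0.11 to 0.23 in reserve cells over myoblasts. Atg7, the E1-like enzyme, was at 27.2 and 22.7 CPM in myotubes, 30.1 and 37.3 in the reserve cells, and 30.5 and 33.8 in myoblasts. It was lower in myotubes than in myoblasts (−0.37, SE 0.13, adjusted p = 0.024) and than in reserve cells (−0.44, adjusted p = 0.012). Leaving out the second myotube library ended both calls (adjusted p = 0.17 and 0.10), as did leaving out the second myoblast library for the first (adjusted p = 0.15) and the second reserve cell library for the other (adjusted p = 0.15). DESeq2 also ended the call against myoblasts.

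The Atg8 family showed a change of leading member. Map1lc3a (LC3A) was at 261 and 239 CPM in myotubes, 117 and 114 in the reserve cells, and 44.1 and 40.4 in myoblasts. No values of different groups overlapped, and it was 5.92-fold higher in myotubes (2.57, SE 0.07, adjusted p = 1.4e-12) and 2.74-fold higher in reserve cells than in myoblasts (1.45, SE 0.07). Map1lc3a is ENSMUSG00000027602.9, on the plus strand of GRCm38 (mm10) chromosome 2 from 155276297 to 155278073. Gabarapl2 (GATE-16) was at 82.3 and 71.8 CPM in myotubes, 41.9 and 35.5 in the reserve cells, and 28.3 and 27.6 in myoblasts, and was 2.75-fold higher in myotubes than in myoblasts. Map1lc3b (LC3B), the form most often used to follow autophagosomes, changed less, with 168 and 175 CPM in myotubes, 146 and 148 in the reserve cells, and 111 and 114 in myoblasts. Its log2 fold change was 0.61 in myotubes over myoblasts, and its call over reserve cells (0.22) was lost with library totals (adjusted p = 0.82).

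Gabarapl1 moved the opposite way. It was at 64.2 and 64.3 CPM in myotubes, 106 and 92.7 in the reserve cells, and 125 and 124 in myoblasts, with log2 fold changes of −0.95 in myotubes (SE 0.08, adjusted p = 1.2e-07) and −0.32 in reserve cells over myoblasts. Gabarap, the founding member of its branch, was at 221 and 216 CPM in myotubes, 255 and 254 in the reserve cells, and 210 and 232 in myoblasts. It was higher in reserve cells than in myoblasts (0.20, adjusted p = 0.0073), a call that was lost with library totals (adjusted p = 0.059) and without the first myoblast library (adjusted p = 0.14). It was lower in myotubes than in reserve cells (−0.22, adjusted p = 0.0035), and with library totals also than in myoblasts (−0.30, adjusted p = 0.00029).

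On the TPM scale, Map1lc3a made up 44.1% and 42.0% of the family's summed level in myotubes, 24.8% and 25.0% in reserve cells, and 12.8% and 11.2% in myoblasts. Gabarap made up 29.3% and 30.5% in myotubes, 43.1% and 44.6% in reserve cells, and 47.7% and 50.9% in myoblasts. Map1lc3a was thus the most abundant Atg8 transcript per length in both myotube libraries, and Gabarap in the other 4. These shares were not tested.

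**Figure D2:**
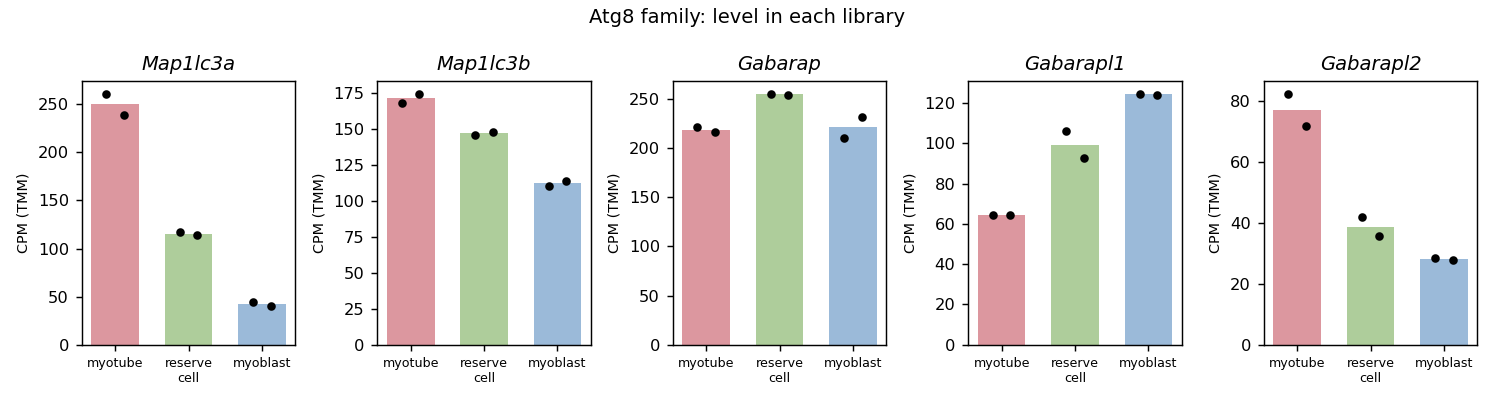
Level of the 5 Atg8 family genes in CPM (y axes, from 0) in myotubes, reserve cells and myoblasts. Bars are means of 2 libraries and points are the libraries. Map1lc3a stands at 261 and 239 CPM in myotubes, beside 44.1 and 40.4 CPM in myoblasts, and Gabarapl1 has the reverse order.

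The 3 cargo receptors each had a pattern of their own. Nbr1, a receptor for ubiquitinated cargo that in muscle binds the giant protein titin, was at 257 and 267 CPM in myotubes, 193 and 200.4 in the reserve cells, and 140 and 143 in myoblasts. It was 1.85-fold higher in myotubes than in myoblasts (0.89, SE 0.05, adjusted p = 3.4e-09). Sqstm1 (p62), a receptor that is itself degraded by autophagy, was at 570 and 566 CPM in myotubes, 584 and 559 in the reserve cells, and 695 and 685 in myoblasts. It was lower than in myoblasts by nearly the same amount in both day 7 groups (−0.28 and −0.27, SE 0.04 each). These did not differ past the threshold (−0.01, 95% interval −0.10 to 0.08), although with library totals Sqstm1 was lower in myotubes than in reserve cells (−0.22, adjusted p = 0.00045). Optn (optineurin), a receptor for damaged mitochondria and bacteria, was at 38.9 and 34.5 CPM in myotubes, 23.9 and 24.8 in the reserve cells, and 31.9 and 32.9 in myoblasts. It was lowest in reserve cells, below both myoblasts (−0.41, adjusted p = 0.0047) and myotubes, where the log2 fold change of myotubes over reserve cells was 0.59.

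The MiT/TFE factors changed in opposite directions. Tfeb was at 38.8 and 39.4 CPM in myotubes, 19.2 and 17.5 in the reserve cells, and 12.1 and 10.3 in myoblasts. It was 3.50-fold higher in myotubes than in myoblasts (1.81, SE 0.13, adjusted p = 4.8e-08) and 2.12-fold higher than in reserve cells. Tfe3 was at 23.8 and 19.7 CPM in myotubes, 49.8 and 51.6 in the reserve cells, and 65.3 and 71.2 in myoblasts. It was 3.15-fold lower in myotubes than in myoblasts (−1.65, SE 0.10, adjusted p = 5.7e-09) and lower in reserve cells than in myoblasts (−0.43, SE 0.09). Tfeb is ENSMUSG00000023990.18 on chromosome 17 from 47737030 to 47792419, and Tfe3 is ENSMUSG00000000134.17 on chromosome X from 7762560 to 7775202, both on the plus strand.

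On the TPM scale, Tfeb held 62.2% and 66.8% of the summed level of the 3 factors in myotubes, 32.0% and 29.7% in reserve cells, and 18.8% and 16.3% in myoblasts. Tfe3 held 27.1% and 22.7% in myotubes, 60.4% and 60.8% in reserve cells, and 74.5% and 76.3% in myoblasts. Mitf, known as the regulator of melanocytes, was low in every group, at 12.5 and 12.1 CPM in myotubes, 8.77 and 10.7 in the reserve cells, and 7.75 and 7.23 in myoblasts. It was higher in myotubes than in myoblasts (0.72, SE 0.19, adjusted p = 0.0043), and this was lost with library totals (adjusted p = 0.055). Of 4 melanocyte markers, Dct and Mlana were at 0 in every library and all were under 1 CPM.

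Of the 4 lysosomal membrane and cholesterol genes, Lamp1 was higher and Lamp2, Npc1 and Npc2 were lower in myotubes than in myoblasts. Lamp1, a major glycoprotein of the lysosomal membrane, was at 1241 and 1267 CPM in myotubes, 1091 and 1115 in the reserve cells, and 861 and 846 in myoblasts, with log2 fold changes of 0.56 in myotubes and 0.37 in reserve cells over myoblasts. Its call in myotubes over reserve cells (0.19) was lost with library totals (−0.02, adjusted p = 0.64). Both calls of Lamp1 over myoblasts were lost with limma-trend on the series table (0.24, adjusted p = 0.42, in myotubes and 0.39, adjusted p = 0.28, in reserve cells). Lamp2, the related glycoprotein needed for fusion and for chaperone-mediated autophagy, was at 237 and 254 CPM in myotubes, 381 and 364 in the reserve cells, and 306 and 325 in myoblasts. It was lower in myotubes than in either other group (−0.37 against myoblasts and −0.60 against reserve cells, SE 0.05 each) and higher in reserve cells than in myoblasts (0.24, adjusted p = 0.002).

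Npc1 and Npc2 hand cholesterol out of the lysosome, Npc2 in the lumen and Npc1 in the membrane. Npc2 was at 173 and 158 CPM in myotubes, 416 and 396 in the reserve cells, and 407 and 405 in myoblasts. It was 2.45-fold lower in myotubes than in either other group (−1.29, SE 0.05, for both), and reserve cells overlapped myoblasts (0.00, 95% interval −0.11 to 0.11). Npc1 was at 74.2 and 71.5 CPM in myotubes, 81.0 and 88.1 in the reserve cells, and 99.5 and 93.6 in myoblasts. It was lower in myotubes than in myoblasts (−0.41, adjusted p = 0.00036). Its call between myotubes and reserve cells (−0.22, adjusted p = 0.028) was lost with DESeq2, with factors by relative log expression, without the second myotube library (adjusted p = 0.093) and without the second reserve cell library (adjusted p = 0.17). In reserve cells over myoblasts it was not called (−0.19, adjusted p = 0.053) but passed under 8 of 17 alternatives.

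Among the hydrolases, cathepsins D, L and B each changed differently. Ctsd, an aspartic protease, was at 1356 and 1363 CPM in myotubes, 1136 and 1092 in the reserve cells, and 501 and 511 in myoblasts. It was 2.69-fold higher in myotubes (1.43, SE 0.04, adjusted p = 1.3e-12) and 2.20-fold higher in reserve cells than in myoblasts (1.14, SE 0.04). The smaller difference of myotubes over reserve cells (0.29) was not called with library totals (adjusted p = 0.077). Ctsb, a cysteine protease, was at 478 and 465 CPM in myotubes, 694 and 699 in the reserve cells, and 816 and 824 in myoblasts, with log2 fold changes of −0.80 in myotubes and −0.24 in reserve cells over myoblasts (SE 0.04 each). Ctsl, a related cysteine protease, was at 771 and 744 CPM in myotubes, 422 and 396 in the reserve cells, and 623 and 600 in myoblasts. It was lowest in reserve cells (−0.58 against myoblasts, SE 0.04, adjusted p = 1.9e-07) and 1.85-fold higher in myotubes than in reserve cells. Its call in myotubes over myoblasts (0.31) was lost with library totals (0.03, adjusted p = 0.55).

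Hexa, a subunit of beta-hexosaminidase, was higher in both day 7 groups, with levels of 215 and 218 CPM for myotubes, 219 and 235 CPM for reserve cells, and 137 and 133 CPM in myoblasts. Its log2 fold change over myoblasts was 0.68 in myotubes, which limma-trend on the series table did not call (0.37, adjusted p = 0.16), and 0.75 in reserve cells. Myotubes and reserve cells did not differ past the threshold (−0.07), but did with library totals (−0.27, adjusted p = 0.00058). Gaa, the acid alpha-glucosidase that digests glycogen, was at 125 and 113 CPM in myotubes, 133 and 136 in the reserve cells, and 111 and 105 in myoblasts. It was called in reserve cells over myoblasts (0.31, adjusted p = 0.0014) and not in myotubes over myoblasts (0.13, adjusted p = 0.088), where it passed with factors by relative log expression, with the stricter filter and without the second myotube library (adjusted p = 0.038). In myotubes over reserve cells it was called (−0.18, adjusted p = 0.033), but not without the second myotube library (adjusted p = 0.23) or either reserve cell library (adjusted p = 0.070 and 0.11), nor with DESeq2, with factors by relative log expression or with plain dispersions. Ctsk, the collagen-digesting cathepsin of osteoclasts, was not tested, with 4 and 0 counts in myotubes, 17 and 8 in reserve cells, and 0 and 6 in myoblasts. Of 5 osteoclast markers, Calcr and Dcstamp were at 0 in every library and all were under 1 CPM.

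**Figure D3:**
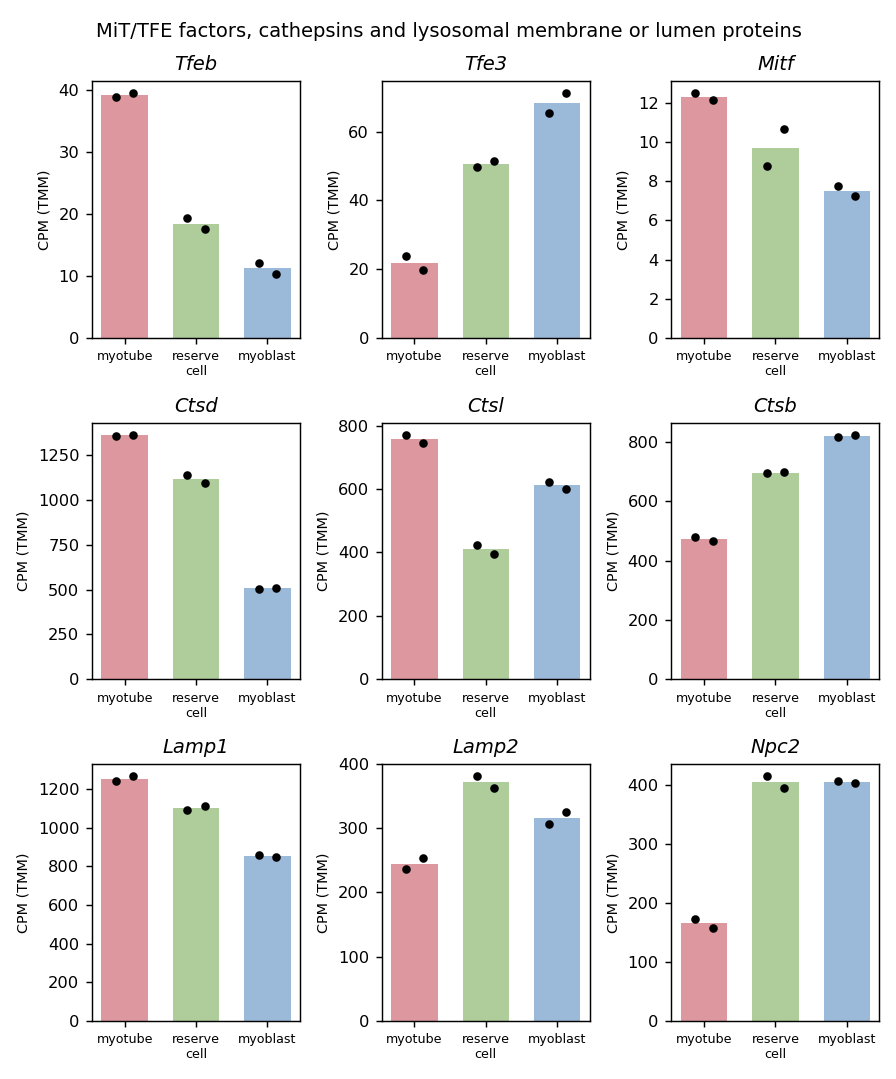
Level in CPM (y axes, from 0) of the MiT/TFE factors, 3 cathepsins, Lamp1, Lamp2 and Npc2 in myotubes, reserve cells and myoblasts. Bars are means of 2 libraries and points are the libraries. Tfeb and Ctsd are highest in myotubes, Tfe3 and Ctsb are highest in myoblasts, Ctsl is lowest in reserve cells, and Npc2 is low in myotubes alone.

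Per length, the same few genes led the list in every group. Ctsd and Lamp1 led in myotubes, at 1186 and 1046 TPM, and in reserve cells, at 1273 and 1204 TPM, while Lamp1 and Sqstm1 led in myoblasts, at 950 and 770 TPM. Map1lc3a held the fifth place in myotubes, at 438 TPM, and its mean was 263 TPM in reserve cells and 99.0 TPM in myoblasts. TPM is not corrected for the large share of muscle transcripts in myotubes, so it ranks genes within a group only.

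The mean of reserve cells lay between those of myotubes and myoblasts for 25 of the 36 tested genes (69.4%, beside 57.5% of all tested genes). In 19 of the 25 myotubes were highest, among them Ulk1, Becn1, Map1lc3a, Tfeb and Ctsd. The 19 made up 52.8% of the 36, where 29.1% of all tested genes had this order. In 6 myoblasts were highest, namely Wipi2, Gabarapl1, Sqstm1, Tfe3, Npc1 and Ctsb (16.7%, beside 28.4% of all tested genes). Reserve cells were highest for 8 (22.2%, beside 21.9% of all tested genes). They were lowest for the 3 genes Atg5, Optn and Ctsl (8.3%, beside 20.4% of all tested genes). Neighbours in this order often did not differ past the threshold, as between myotubes and reserve cells for Ulk1, Rb1cc1, Atg14, Atg3, Atg4b, Sqstm1 and Mitf. In all, 13 of the 36 genes were called higher in each of the 3 comparisons, the order myotubes, reserve cells, myoblasts. Of all tested genes 12.1% were. With library totals 9 of them remained, without Atg13, Map1lc3b, Lamp1 and Ctsd. Over all tested genes 1413 were then called higher in each, in place of 1872. The 3 genes Gabarapl1, Tfe3 and Ctsb were called lower in each comparison, where 11.5% of all tested genes were. With library totals Npc1 and Sqstm1 joined them, and over all tested genes 2396 were called lower in each, in place of 1779. Atg4b and Atg5 were called in none, by edgeR at an adjusted p under 0.05.

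The deposited values are per transcript, so the share of each transcript within a gene was compared with edgeR's diffSpliceDGE. Of 26 genes with at least 2 tested transcripts, Atg13 and Lamp2 were called in myotubes over myoblasts, where 11.0% of all tested genes were, and Atg13 in reserve cells over myoblasts, where 4.80% were. In myotubes over reserve cells 0 of the 26 were called, where 5.17% of all were. There 6 had an unadjusted p under 0.05, and 0 to 2 were called under the alternatives.

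Atg13 exchanged its leading transcript. Atg13-201 (ENSMUST00000028678.8) held 67.4% and 76.2% of the counts of Atg13 in myotubes, 34.2% and 38.5% in reserve cells, and 0.0% and 0.12% in myoblasts. Atg13-202 (ENSMUST00000076803.11) held 30.9% and 21.9% in myotubes, 64.4% and 60.4% in reserve cells, and 99.4% and 99.0% in myoblasts. The estimated counts of Atg13-201 were 679 and 917 in myotubes, 413 and 421 in reserve cells, and 0 and 1 in myoblasts. The adjusted p for usage was 1.2e-05 in myotubes and 7.7e-05 in reserve cells over myoblasts, and 0.070 in myotubes over reserve cells (0.039 to 0.34 under the alternatives). StringTie divides reads between such transcripts by estimate, so the shares carry that uncertainty.

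The annotated difference within the coding sequence is 1 exon of 111 bases (37 codons, so the frame is kept) that Atg13-201 has and Atg13-202 lacks. It lies on the minus strand of GRCm38 at chr2:91682026-91682136. It is printed because it is the coding difference between these transcripts, in capitals, with the 18 bases of the spliced Atg13-201 transcript on each side in lower case.
Atg13 exon: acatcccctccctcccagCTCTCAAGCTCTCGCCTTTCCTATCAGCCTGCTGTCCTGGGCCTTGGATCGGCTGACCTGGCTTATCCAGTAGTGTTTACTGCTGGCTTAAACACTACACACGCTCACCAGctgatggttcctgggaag
The transcripts share 14 exons, and Atg13-201 has 17 in all and Atg13-202 has 16, so they differ in other exons too. Which exons gave the estimated shares was not tested.

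Lamp2 kept its leading transcript and changed the minor ones. Lamp2-202 (ENSMUST00000061755.8) held 77.3% and 79.9% of the counts of Lamp2 in myotubes, 80.7% and 81.0% in reserve cells, and 76.1% and 78.8% in myoblasts. Lamp2 did not meet the rule for naming transcripts given below, and Lamp2-201 and Lamp2-203 were singled out after their values were seen. Lamp2-201 held 14.1% and 9.46% in myotubes, 17.5% and 16.8% in reserve cells, and 22.5% and 20.3% in myoblasts. Lamp2-203 held 7.42% and 9.74% in myotubes, 1.41% and 1.86% in reserve cells, and 1.20% and 0.76% in myoblasts. The adjusted p for usage was 0.0041 in myotubes over myoblasts (0.00037 to 0.047 under the alternatives), 0.27 in reserve cells over myoblasts, where alternatives reached 0.033, and 0.11 in myotubes over reserve cells, where they reached 0.0043.

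The 3 Lamp2 transcripts share 8 exons and differ in the last, which encodes the end of the protein. The coding parts of these last exons, on the minus strand of chromosome X, are shown because they are what the exchange alters, with the stop codon in capitals. They lie at chrX:38421712-38421851, chrX:38405432-38405571 and chrX:38402139-38402281, in the order of the lines.
Lamp2-202: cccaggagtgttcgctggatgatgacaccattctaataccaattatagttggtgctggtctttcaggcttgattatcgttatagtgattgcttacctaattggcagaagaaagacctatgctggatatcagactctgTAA
Lamp2-201: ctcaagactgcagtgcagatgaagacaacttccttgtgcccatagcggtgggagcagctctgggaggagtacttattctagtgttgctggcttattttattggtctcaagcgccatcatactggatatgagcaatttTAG
Lamp2-203: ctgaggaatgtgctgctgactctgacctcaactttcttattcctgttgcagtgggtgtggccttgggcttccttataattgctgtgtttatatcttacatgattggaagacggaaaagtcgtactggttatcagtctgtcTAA
The first 2 are 140 bases long and the third is 143 bases.

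**Figure D4:**
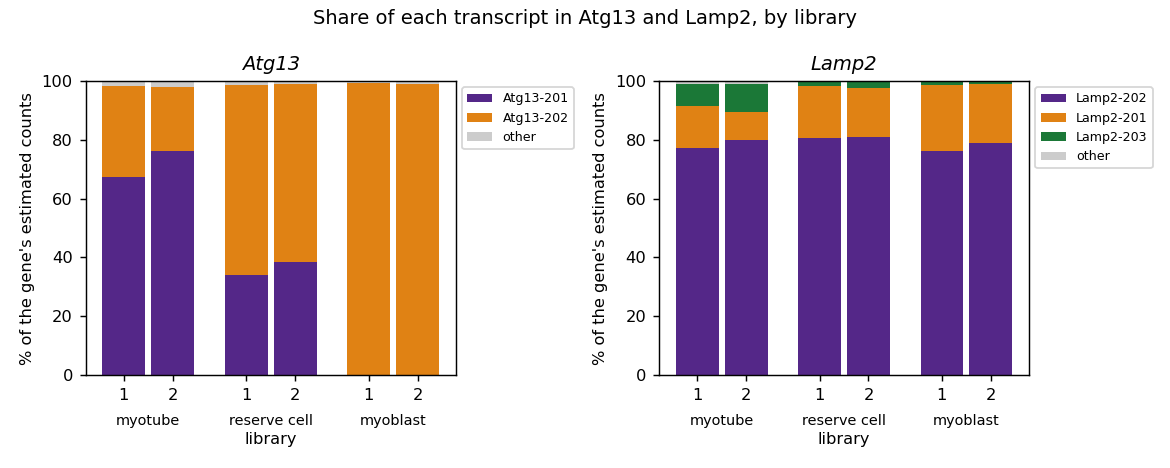
Share of the estimated counts of Atg13 and of Lamp2 held by each transcript (y axis, percent from 0 to 100), in the 2 libraries each of myotubes, reserve cells and myoblasts. Colours are transcripts and grey is the remainder. Atg13-201 holds 67.4% and 76.2% in myotubes and at most 0.12% in myoblasts, while Lamp2-202 holds 76.1% to 81.0% in every library.

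MiT/TFE factors bind E-box letters, of which CACGTG is the palindromic form. In RefSeq promoter windows on GRCm38.p6, from 250 bases before to 50 after a gene's start, 29 of the 37 genes had a window. CACGTG, which reads the same on both strands, was found in 8 of the 29 (27.6%), namely Atg14, Atg3, Atg5, Atg7, Lamp1, Ctsd, Ctsl and Gaa, and in 8.09% of all 27025 genes with a window. The longer TCACGTG, which contains it, was found on either strand in 6 (20.7%), and in 4.29% of all genes. TCACGTGA was found in Atg3 and Ctsd, and in 1.12% of all. Among the 8 genes, Ctsd, Lamp1, Atg3 and Atg14 were higher in myotubes than in myoblasts, Atg7 was lower, Ctsl was higher but not with library totals, and Atg5 and Gaa were not called. A match is a description of letters and not a binding site.

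The stretches upstream of the RefSeq start that hold CACGTG in 3 of these genes are shown, with the letters in capitals, since Ctsd had the largest change among them and Lamp1 the most matches. In GENCODE M21, the Ctsd gene begins farther upstream, at base 142388038, inside the stretch shown. They lie at chr7:142387910-142388077 on the minus strand for Ctsd, chr8:13159090-13159160 on the plus strand for Lamp1 and chr16:45158725-45158773 on the plus strand for Atg3.
Ctsd: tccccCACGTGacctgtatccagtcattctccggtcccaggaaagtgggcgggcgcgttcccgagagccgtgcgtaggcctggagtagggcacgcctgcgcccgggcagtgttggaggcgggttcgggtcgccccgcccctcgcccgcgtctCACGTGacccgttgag
Lamp1: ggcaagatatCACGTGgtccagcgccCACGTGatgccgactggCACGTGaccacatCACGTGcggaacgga
Atg3: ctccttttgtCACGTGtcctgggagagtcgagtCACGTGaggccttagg

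Of 141 further genes of the pathway in 6 lists, 139 were tested. In myotubes over myoblasts 76 were higher and 30 lower, in reserve cells over myoblasts 71 and 17, and in myotubes over reserve cells 53 and 43. The shares called were 76.3%, 63.3% and 69.1%, where 65.5%, 47.1% and 56.5% of all tested genes were called. Of all genes called with library totals, 36.5% were higher in myotubes over myoblasts and 34.3% in myotubes over reserve cells. Autophagosome and lysosome fusion genes (HOPS, SNAREs and their tethers) were mostly higher in myotubes than in myoblasts, with 13 higher and 1 lower of 16, or 6 higher and 3 lower with library totals. With TMM 87.5% of this list was called, beside 65.5% of all tested genes. Bloc1s1 was at 61.8 ± 1.34 CPM in myotubes and 29.0 ± 1.71 CPM in myoblasts (SD, n = 2 each), and Rab7, the small GTPase of late endosomes, was lower (−0.41, SE 0.04). In other autophagy machinery, 14 were higher and 4 lower of 27 in myotubes over myoblasts, or 10 and 8 with library totals. The 66.7% called with TMM lay near the 65.5% of all tested genes. Atg4a, a protease of the same family as Atg4b, was at 43.8 ± 0.576 CPM in myotubes and 10.3 ± 0.107 CPM in myoblasts.

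The V-ATPase, the proton pump that acidifies the lysosome, did not move as a unit. Of its 17 genes, 11 were higher and 2 lower in myotubes than in myoblasts, or 9 and 6 with library totals. Atp6v1e1 was at 325 ± 2.45 CPM in myotubes and 69.2 ± 0.574 CPM in myoblasts, while Atp6v1a, a catalytic subunit, was at 134 ± 5.30 CPM in myotubes and 240.1 ± 10.3 CPM in myoblasts. In reserve cells over myoblasts 11 were higher and 1 was lower, and in myotubes over reserve cells 8 were higher and 4 lower, or 5 and 8 with library totals.

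Other lysosomal enzymes, membrane proteins and sorting genes formed the largest list, with 46 tested. In myotubes over myoblasts 16 were higher and 19 lower (12 and 26 with library totals), in reserve cells over myoblasts 23 were higher and 8 lower, and in myotubes over reserve cells 7 were higher and 28 lower, with medians of −0.24, 0.31 and −0.41. Of all tested genes 32.9%, 22.4% and 28.9% were called lower in these comparisons. Ctsc, the cathepsin that activates serine proteases of immune cells, was at 18.2 ± 1.35 CPM in myotubes, 4.23 ± 1.00 CPM in reserve cells and 0.069 ± 0.098 CPM in myoblasts, too few counts there for a fold. Sort1, the sorting receptor sortilin, was at 89.8 ± 3.24 CPM in myotubes, 22.4 ± 3.42 CPM in reserve cells and 5.62 ± 1.69 CPM in myoblasts. The arylsulfatases Arsa and Arsb were lower in myotubes than in reserve cells by log2 fold changes of −2.01 (SE 0.14) and −1.90 (SE 0.09).

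Of 30 tested genes of lysosomal nutrient sensing, 21 were higher and 3 lower in myotubes than in myoblasts (16 and 6 with library totals). In reserve cells over myoblasts 16 were higher and 3 lower, and in myotubes over reserve cells 18 and 3 (11 and 7 with library totals). With TMM the shares called in these 3 comparisons were 80%, 63.3% and 70%, beside 65.5%, 47.1% and 56.5% of all tested genes. Prkaa2, the AMPK catalytic subunit that predominates in muscle, was at 59.0 ± 4.12 CPM in myotubes, 16.6 ± 2.01 CPM in reserve cells and 2.57 ± 1.15 CPM in myoblasts. Prkaa1, the other catalytic subunit, was lower than in myoblasts in both day 7 groups, by log2 fold changes of −0.34 for myotubes and −0.52 for reserve cells (SE 0.06 each). Deptor, an inhibitor of mTOR, was at 611 ± 13.0 CPM in myotubes, 452 ± 11.3 CPM in reserve cells and 182 ± 0.550 CPM in myoblasts. Of 3 cystatins, inhibitors of cysteine cathepsins, Cst3 was higher and Cstb lower in myotubes than in myoblasts (0.47 and −0.91).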

How the data were processed

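The authors aligned reads of 6 polyA RNA libraries to mm10 with HISAT2, filtered them with SAMtools and quantified transcripts with StringTie. The deposited estimated counts are whole numbers per transcript. The authors' series table is a score of about 2 times these values, unscaled for depth. Versions of these programs and the annotation release were not stated in the labels or methods. The 37 genes and all lists were chosen with earlier results of these data known.

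Of 142604 transcripts, 141374 were paired with GENCODE M21 genes, and the other 1230 kept their own identifiers. Gene sums of all 6 libraries entered 1 quasi-likelihood fit (edgeR 4.0.16, R 4.3.3, TMM, filterByExpr at 10 counts). The robust option for dispersions was chosen after results without it had been seen, because it gave the number of calls of an earlier analysis of these files. Plain dispersions are an alternative added then. The other alternatives were DESeq2 1.42.0, limma-trend (limma 3.58.1) on the series table, other scalings, filters and fits, a replicate block and each library left out. The test was checked on simulated counts. All 37 genes are named. Each pathway list names, per comparison, at most 2 called genes that rose most and 2 that fell most, at 10 CPM or more in a group and without overlap, and transcripts follow a rule on the leading transcript. Not every gene that the rule for pathway lists picks is reported here.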

Additional observations from a re-analysis of the deposited data

How the results depend on the processing

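Direction under TMM was not kept by every small change. Of 1836 recomputed member values 70 changed sign, and 55 of these were called in neither fit. Another 14 were called in the reported fit and not in the alternative. These were values of Ulk2 and Ctsl in myotubes over myoblasts, and of Atg13, Map1lc3b, Lamp1 and Ctsd in myotubes over reserve cells. The remaining 1, Atg3 in myotubes over reserve cells with library totals, was called in the alternative alone. All values here are log2 fold changes or numbers of genes called.

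DESeq2 and factors by relative log expression gave Gabarap in myotubes over myoblasts 0.0060 and 0.0068, Npc2 in reserve cells over myoblasts −0.0141 and −0.0142, and Sqstm1 in myotubes over reserve cells 0.0289 and 0.0289. The stricter filter at 10 CPM gave Wipi2 in reserve cells over myoblasts 0.0029, and 2 members called for usage in myotubes over reserve cells in place of 0. With no filter Npc2 in reserve cells over myoblasts was −0.0108.

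Library totals in myotubes over myoblasts gave Ulk2 −0.0049, Atg4b −0.118, Optn −0.100 and Gaa −0.143, and 9 fusion genes called in place of 14. Of all tested genes they called 10242 there, in place of 10137. In reserve cells over myoblasts they gave Atg4b −0.0118, Atg7 −0.0049 and Npc2 −0.0719. In myotubes over reserve cells they gave Ulk1 −0.0875, Rb1cc1 −0.133, Atg3 −0.188, Atg4b −0.106, Atg5 −0.0716 and Lamp1 −0.0205.

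The series table, with 1 and then 10 added, has no scaling for depth. In myotubes over myoblasts it gave Ulk2 −0.0364 and −0.0363, Atg4b −0.152 and −0.151, Optn −0.131 and −0.130, Ctsl −7.7e-05 and −7.8e-05, and Gaa −0.176 and −0.176. In reserve cells over myoblasts Wipi2 was 0.0126 and 0.0126. In myotubes over reserve cells it gave Ulk1 −0.215 and −0.215, Atg13 −0.0620 and −0.0617, Rb1cc1 −0.258 and −0.258, Atg14 −0.0220 and −0.0216, Atg3 −0.314 and −0.313, Atg4b −0.232 and −0.231, Atg5 −0.199 and −0.198, Map1lc3b −0.109 and −0.109, Lamp1 −0.146 and −0.146, and Ctsd −0.0438 and −0.0438.

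The same 2 settings called 12 and 12 members higher in myotubes over myoblasts, with 10 other autophagy genes, 3 fusion genes, 7 V-ATPase genes, 10 nutrient sensing genes and 1 cystatin in both. In reserve cells over myoblasts they called 8 and 10 members, 8 and 10 of them higher and 0 lower (1 at an unadjusted p under 0.05 in limma), 5 other autophagy genes, 0 fusion genes (2 at an unadjusted p under 0.05, and 9 by edgeR), 5 V-ATPase genes, 9 and 14 other lysosomal genes, and 6 and 7 nutrient sensing genes. In myotubes over reserve cells they called 12 and 14 members, 3 and 4 of them higher, 7 other autophagy genes, 2 fusion genes, 6 V-ATPase genes and 5 nutrient sensing genes. Of all genes they called 8197 and 8425 in myotubes over myoblasts, and 3768 and 4123 in reserve cells over myoblasts. Between myotubes and reserve cells they called 6215 and 6617 of all genes.

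Leaving out each library in turn gave ranges of −0.0083 to 0.0268 for Atg3 and −0.0523 to 0.0168 for Sqstm1 in myotubes over reserve cells, −0.220 to 0.133 for Atg5 and −0.0972 to 0.0469 for Gabarap in myotubes over myoblasts, and, in reserve cells over myoblasts, −0.349 to 0.0032 for Atg5, −0.0942 to 0.210 for Atg7, −0.0386 to 0.0354 for Npc2 and −0.0720 to 0.0466 for Wipi2. Members lower in myotubes than in reserve cells numbered 7 to 11. Members called for usage numbered 2 to 4 in myotubes over myoblasts, 1 to 2 in reserve cells over myoblasts and 0 to 1 in myotubes over reserve cells.

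Over all genes, libraries with the same replicate number did not deviate together (correlations of 0.002, 0.040 and −0.032). These correlations cannot show a shared preparation that altered few genes, and the labels name no pairing beyond the number. The replicate block called 30, 29 and 26 members, as without it, gave Npc2 in reserve cells over myoblasts −0.00074, and called 4 members for usage in myotubes over myoblasts in place of 2. The causes of these changes were not tested. With 2 libraries a group, small changes are the least certain.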
